A study of Mus musculus with 6 samples.

Results

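The p90 ribosomal S6 kinase (RSK) genes and the protein kinase D (PKD) genes were examined in a mouse lung cancer line, 344SQ, that carried either a control shRNA (short hairpin RNA) or one directed at Pik3ca, whose product p110-alpha is a catalytic subunit of phosphoinositide 3-kinase. The set has 9 members, Rps6ka1 to Rps6ka6 and Prkd1 to Prkd3, and was picked because Prkd1 and Rps6ka6 were already known to fall strongly in this comparison. Of the 9 members, 6 had a probe set listed under 1 gene symbol and together had 19 probe sets, of 18193 genes and 45037 non-control probe sets in all. Rps6ka1, Rps6ka2 and Rps6ka4 had no such probe set in the annotation used and were not analysed here. No member was removed by a filter on dim values.

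Both groups were the same line in serum-containing RPMI medium, and per the labels the PIK3CA hairpin vectors were introduced by lipid transfection. Each group had 3 Affymetrix arrays. Hairpin sequences, the time after transfection, and whether the cells were selected, cloned or pooled are not stated in the labels. The labels do not tie replicates to different cultures, and p-values therefore reflect the spread of these samples alone, which may be technical.

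RSKs are serine/threonine kinases that carry a pair of kinase domains in 1 chain. In the usual scheme, ERK binds and activates the C-terminal domain, and the kinase PDK1 completes activation of the N-terminal domain. This scheme need not hold for every RSK. The active enzyme phosphorylates ribosomal protein S6, CREB and other substrates. The related mitogen- and stress-activated kinases (MSKs), of which Rps6ka5 encodes one, act downstream of both ERK and p38. PKDs bind diacylglycerol, are switched on by protein kinase C, and are known for roles in transport from the Golgi and in nuclear export of class IIa histone deacetylases.

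The members with the largest changes are shown first by their promoters, from 250 bases before to 50 after the annotated start, because these are the members that moved (sequences from RefSeq, build GRCm38.p6, minus strand, written 5′ to 3′). Capitals mark matches, on either strand, to 8 motifs: the GC box GGGCGG, the TATA box TATAAA, the CCAAT box, the forkhead motif GTAAACA, the cAMP response element TGACGTCA, the AP-1 motif TGANTCA, the E-box CACGTG and the ETS motif CCGGAAG. The entries are Prkd1 (chr12:50649200-50649499), Rps6ka6 at its outer start (chrX:111537910-111538209) and its inner start (chrX:111463448-111463747), and Rps6ka5 (chr12:100725071-100725370).
Prkd1: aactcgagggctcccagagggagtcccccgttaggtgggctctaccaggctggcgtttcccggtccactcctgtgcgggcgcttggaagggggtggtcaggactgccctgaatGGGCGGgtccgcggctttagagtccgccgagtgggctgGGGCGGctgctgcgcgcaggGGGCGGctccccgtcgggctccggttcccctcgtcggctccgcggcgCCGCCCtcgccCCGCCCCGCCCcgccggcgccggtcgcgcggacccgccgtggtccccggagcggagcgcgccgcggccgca
Rps6ka6 outer start: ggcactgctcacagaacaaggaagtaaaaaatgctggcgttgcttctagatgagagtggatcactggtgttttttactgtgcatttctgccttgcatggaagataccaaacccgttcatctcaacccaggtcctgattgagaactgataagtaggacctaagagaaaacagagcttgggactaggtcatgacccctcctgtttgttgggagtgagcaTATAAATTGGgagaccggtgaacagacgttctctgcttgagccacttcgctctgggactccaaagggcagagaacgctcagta
Rps6ka6 inner start: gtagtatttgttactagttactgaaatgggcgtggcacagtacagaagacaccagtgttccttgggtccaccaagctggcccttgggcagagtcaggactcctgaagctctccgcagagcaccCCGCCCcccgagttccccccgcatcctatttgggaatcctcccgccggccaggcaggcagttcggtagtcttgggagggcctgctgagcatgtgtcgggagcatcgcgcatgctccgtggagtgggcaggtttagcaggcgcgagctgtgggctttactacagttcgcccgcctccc
Rps6ka5: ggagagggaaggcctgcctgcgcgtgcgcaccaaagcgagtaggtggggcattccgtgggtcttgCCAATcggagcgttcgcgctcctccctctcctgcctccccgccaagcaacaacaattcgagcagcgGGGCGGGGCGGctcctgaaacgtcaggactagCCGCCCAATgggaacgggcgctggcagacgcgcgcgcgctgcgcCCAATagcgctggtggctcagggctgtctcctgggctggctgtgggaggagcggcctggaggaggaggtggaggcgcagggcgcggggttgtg

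The promoters of Prkd1 and Rps6ka6 had little in common at the level of these letters. The Prkd1 window held 43 CpG dinucleotides and 6 GC box matches, some of them overlapping, and 97.4% of the 32851 promoters in the table had fewer CpGs. The outer Rps6ka6 window held 6 CpGs, no GC box, and 1 TATA box match starting 33 bases before the annotated start, which overlapped a reversed CCAAT box match by a base. The inner Rps6ka6 window held 16 CpGs and 1 GC box match. The Rps6ka5 window held 29 CpGs, 3 GC box matches and 3 CCAAT box matches, some of which overlapped. Over all promoters of this length 35.7% held the GC box letters, 13.6% those of the TATA box and 37.4% those of the CCAAT box. The forkhead (3.65% of all promoters), cAMP response element (1.79%), AP-1 (7.81%), E-box (7.15%) and ETS (8.86%) letters were in none of these 4 windows. A match is only a run of letters, and the arrays do not show which start was used. A CpG-rich start was not limited to called members. The uncalled Prkd3 held 45 CpGs and 4 GC box matches in 1 window, where 98.1% of promoters had fewer CpGs. Its other window held 2 CpGs and no GC box. Both windows of the uncalled Prkd2 held 21 CpGs, with 2 and 3 GC box matches.

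The targeted gene was lower on 5 of its 6 probe sets, to between 47.7% and 61.1% of control. The brightest Pik3ca probe set read 2450, 2324 and 2364 in control arrays and 1249, 1237 and 1220 in PIK3CA shRNA arrays, in intensity units, and the groups did not overlap. The change was -0.94 on the log2(intensity + 16) scale, PIK3CA shRNA minus control (limma over all genes, adjusted p = 0.000762). The remaining probe set was at -0.01, with overlapping groups. It was the dimmest of the 6, at a control mean of 140, near the median of 134 over all probe sets. All changes below are in this direction and on this scale, on which dim genes appear to change less than they do. The epithelial label was checked on 7 markers, among them Cdh1, whose intensity averaged 11344 on control arrays and 11047 on PIK3CA shRNA arrays, and the keratin gene Krt8 (11903 and 12469). Of the other epithelial markers, Cldn4 (82.2 and 99.2) and Cldn7 (156 and 117) lay below the median over genes, 251. Of the lung markers, only the surfactant gene Sftpb (1223 and 1389) lay above that median. Nkx2-1 (116 and 102), Sftpc (94.2 and 90.2), Foxj1 (72.0 and 72.5) and Scgb1a1 (24.0 and 16.1) lay below it. Summed over the list, 7 of 7 epithelial markers ranged from 42392 to 45207 in control and from 43389 to 44105 in PIK3CA shRNA arrays, and 5 of 6 leukocyte markers from 484 to 684 and from 544 to 648. The sums of 6 of 6 fibroblast markers (617 to 643 and 418 to 697) and 5 of 5 endothelial markers (495 to 580 and 528 to 648) also overlapped, and the only called marker was the fibroblast gene Dcn (-0.75). The 5 lung markers summed to 1385 to 1625 in control and 1629 to 1727 in PIK3CA shRNA arrays, with none past the threshold by limma. These lung sums, in which Sftpb was the largest part, narrowly did not overlap. At an unadjusted p under 0.05 there were 1 epithelial, 2 fibroblast, 2 endothelial, 0 lung and 0 leukocyte markers. The lowest markers were the endothelial gene Tie1 (2.42 in control and 2.26 in PIK3CA shRNA arrays) and the fibroblast gene Pdgfrb (6.37 and 4.87). No array held a value below 0.0359, so a reading above 0 does not show that a marker was expressed. The part of these markers in the results below was not tested.

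In PIK3CA shRNA cells Rps6ka6 and Prkd1 fell on both of their probe sets, Rps6ka5 rose on its brightest probe set, and Rps6ka3, Prkd2 and Prkd3 did not pass the threshold. With 1 probe set per gene, the brightest, 1 of the 6 measured members was higher and 2 were lower at limma adjusted p 0.05, where 5.88% and 5.62% of all genes were. Of the 19 probe sets tested among all probe sets, 1 was higher and 4 were lower, against 2.64% and 2.30% of all probe sets (4.94% in either direction, and 11.5% of genes). Standard errors of members below are from the fit over all probe sets unless the gene-level fit is named. Because the set was picked from this comparison, these counts are a description, and no p is given for a member. The median change was 0.06 over the 19 probe sets and -0.01 over all probe sets. The groups did not overlap in 10 of the 19, 6 of them higher and 4 lower, and they did not overlap in 27.3% of all probe sets.

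**Figure D1:**
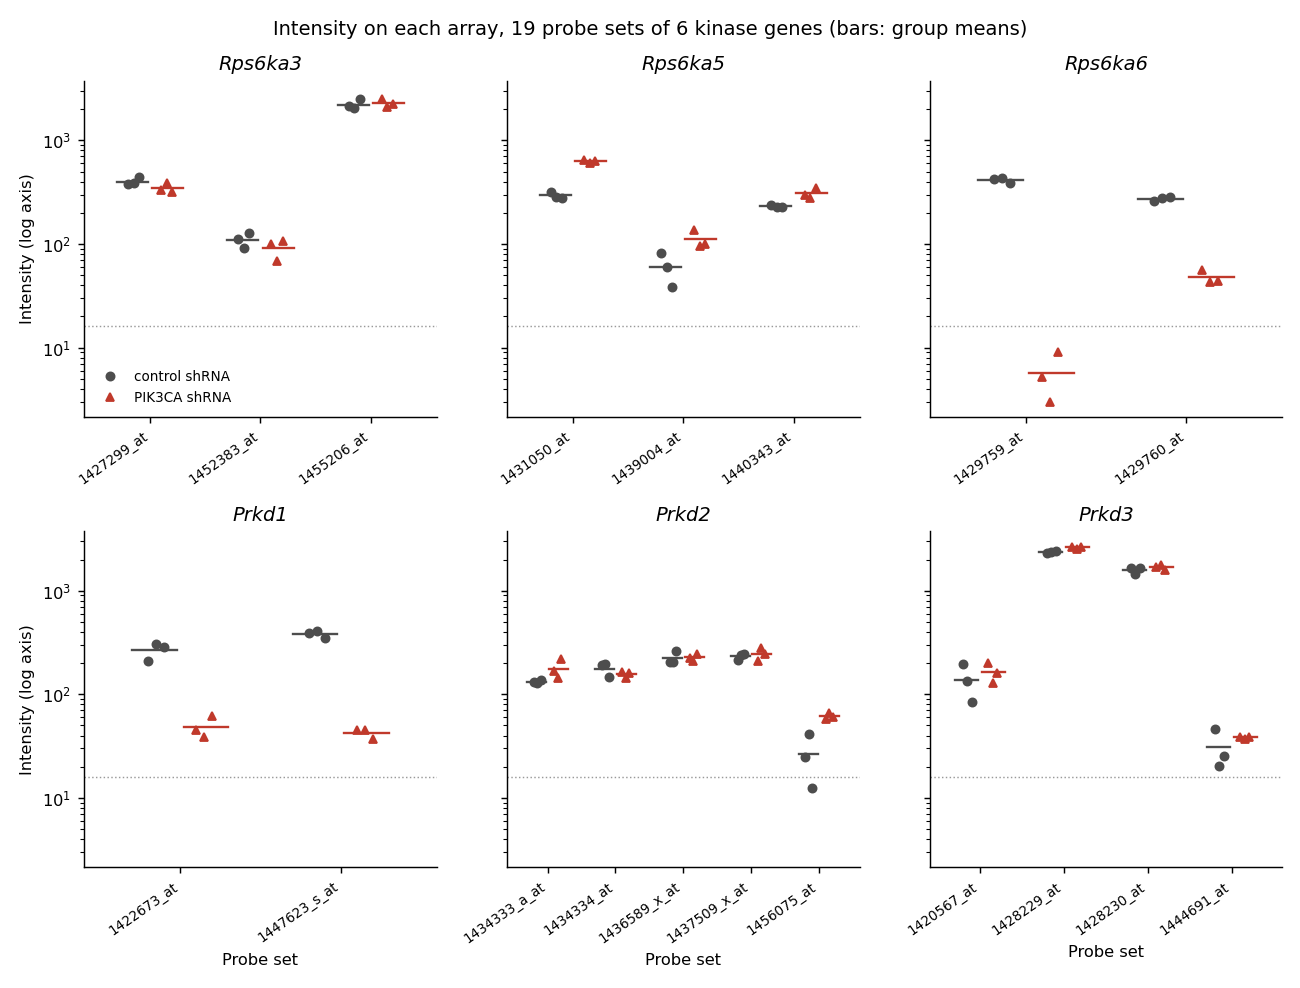
Intensity (log axis) of each of the 19 probe sets on the 3 control shRNA arrays (circles) and 3 PIK3CA shRNA arrays (triangles), by gene, with bars at the group means and a dotted line at the pseudocount of 16. The PIK3CA shRNA arrays lie far below the control arrays for both probe sets of Rps6ka6 and of Prkd1, and above them for the 3 probe sets of Rps6ka5.

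Rps6ka6 encodes RSK4, a member of the RSK family on the X chromosome. Its probe set 1429759_at read 422, 433 and 386 on the control arrays and 5.20, 3.01 and 8.98 on the PIK3CA shRNA arrays. Every PIK3CA shRNA reading was thus below the pseudocount of 16, and the mean of 5.73 ± 3.02 (SD, n = 3) was 1.39% of the control mean of 414 ± 24.8 (SD, n = 3). Only 4.52% of probe sets had a lower mean in PIK3CA shRNA arrays, whereas 71.1% had a lower mean than this probe set in control arrays.

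This was the largest fall among the 45037 probe sets at each pseudocount tried, but its size depends on what is added to so low a reading. It was -4.31 with a standard error of 0.12 at the pseudocount of 16, -6.04 at 1 and -2.78 at 64. No detection calls were used here, so the remaining share of control rests on readings near the bottom of the array range. In bulk RNA, fewer expressing cells and less RNA per cell cannot be told apart.

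The other Rps6ka6 probe set, 1429760_at, was read as 257, 278 and 287 in control and 56.3, 43.2 and 43.7 in PIK3CA shRNA arrays. Its groups also stood well apart, and 17.4% of the control mean remained. Its change was -2.19 with a standard error of 0.11. This probe set has the higher mean log2 value over the 6 arrays and so stands for the gene in the gene-level fit, although the other was brighter in control cells. The annotation lists both under 1 transcript accession, so they are not independent readings of the gene. Averaged over both, Rps6ka6 changed by -3.25.

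Rps6ka3 encodes RSK2, the RSK mutated in Coffin-Lowry syndrome. Its brightest probe set read 2131, 2049 and 2489 in control and 2526, 2108 and 2256 in PIK3CA shRNA arrays, and the groups overlapped. This was a change of 0.05 with a standard error of 0.11. The other Rps6ka3 probe sets, which share a listed accession, read -0.21 and -0.23 with overlapping groups, and none of the 3 passed. Rps6ka3 and Rps6ka6 are both on the X chromosome.

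Rps6ka5 encodes MSK1, which phosphorylates histone H3 and CREB. Its brightest probe set, 1431050_at, read 320.3, 282 and 281 in control and 644, 602 and 634 in PIK3CA shRNA arrays. The lowest PIK3CA shRNA reading was above the highest control reading, and the mean of 627 ± 22.3 was 2.13 times the control mean of 294 ± 22.5 (SD, n = 3 each). This was a change of 1.05 with a standard error of 0.08, past the threshold among genes and among probe sets.

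The remaining probe sets of Rps6ka5 pointed the same way without passing among probe sets. Probe set 1440343_at read 238, 228 and 228 in control and 299, 277 and 350 in PIK3CA shRNA arrays, a change of 0.39 with a standard error of 0.10. The dim 1439004_at read 82.0, 60.2 and 38.6 against 136, 96.7 and 101, a change of 0.76 with a standard error of 0.24. Neither pair of groups overlapped. The 3 probe sets thus differed in the size of the change, from 0.39 to 1.05, and their mean changed by 0.73.

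Prkd1 encodes protein kinase D1, the founding member of the PKD family. Its probe set 1447623_s_at read 388, 411 and 352 in control and 45.3, 45.0 and 37.0 in PIK3CA shRNA arrays. The 3 PIK3CA shRNA readings lay close together, and their mean of 42.4 ± 4.74 was 11.1% of the control mean of 383 ± 29.7 (SD, n = 3 each). This was a change of -2.77 with a standard error of 0.10. Probe set 1422673_at read 209.6, 309 and 288 in control and 45.7, 39.1 and 61.5 in PIK3CA shRNA arrays, with control replicate 1 the lowest of its group and no overlap. That probe set fell by 2.13 on the log2 scale with a standard error of 0.19, and 18.1% of the control mean remained. By the annotation these probe sets have different accessions. The suffix _s_at marks a probe set whose probes match more than 1 transcript, so 1447623_s_at may read other transcripts too.

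Prkd2 encodes protein kinase D2. None of its 5 probe sets passed. The one that stands for the gene, 1437509_x_at, read 212, 240.1 and 246 in control and 211, 281 and 245 in PIK3CA shRNA arrays, and the groups overlapped. This was a change of 0.06 with a standard error of 0.12. The dimmest, 1456075_at, read 25.0, 41.7 and 12.5 against 58.3, 65.4 and 60.1. Its groups did not overlap and its change was 0.92 with a standard error of 0.25, but 1 control reading was below the pseudocount. The probe set 1434333_a_at had a change of 0.37 with a standard error of 0.15, and its groups did not overlap either. The other 2, 1434334_at and 1436589_x_at, read -0.15 and 0.02 with overlapping groups. By the annotation 1434333_a_at and 1434334_at share a listed transcript, although they changed in opposite directions. The suffix _x_at marks probes that may bind other sequences, so the readings of 1437509_x_at and 1436589_x_at may include other transcripts.

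Prkd3 encodes protein kinase D3. Its brightest probe set read 2304, 2371 and 2408 in control and 2655, 2536 and 2668 in PIK3CA shRNA arrays. The groups did not overlap, and the PIK3CA shRNA mean of 2619 ± 72.9 was 111% of the control mean of 2361 ± 52.8 (SD, n = 3 each). This was a change of 0.15 with a standard error of 0.06 in the gene-level fit and did not pass, although it did pass with an intensity trend and robust prior. The other 3 probe sets read 0.09, 0.25 and 0.25 with overlapping groups, and none passed. The one at 0.09 shares a listed transcript with the brightest.

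**Figure D2:**
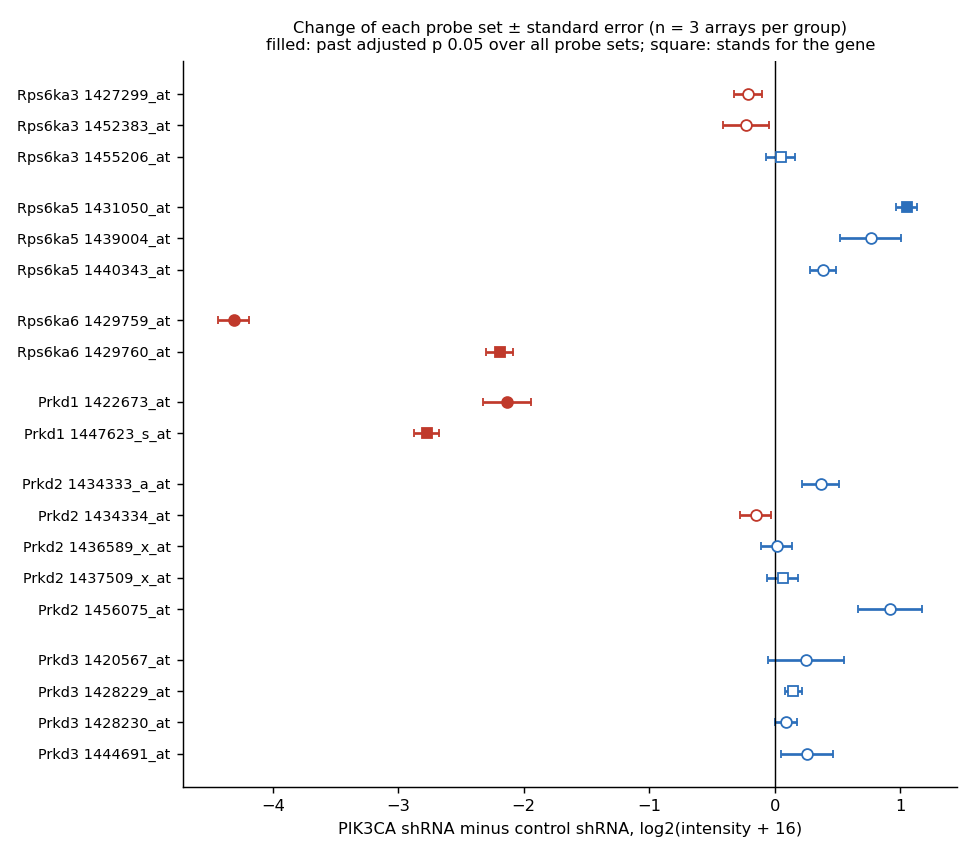
Change of each of the 19 probe sets, given as log2(intensity + 16) in PIK3CA shRNA minus control arrays, with its standard error from the limma fit over all probe sets (3 arrays per group). Filled symbols passed adjusted p 0.05 and squares stand for the gene; the 4 filled symbols on the left are Rps6ka6 (-4.31 and -2.19) and Prkd1 (-2.13 and -2.77), and the filled symbol on the right is Rps6ka5 (1.05).

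The calls of Prkd1, Rps6ka6 and Rps6ka5 were also recomputed without each array. As the set was picked for falls on these same arrays, this describes the calls and adds no support. Each of the 3 kept its direction and its side of the threshold without any 1 of the 6 arrays, with changes between -2.83 and -2.70 for Prkd1, between -2.29 and -2.14 for Rps6ka6, and between 1.02 and 1.11 for Rps6ka5. Prkd1 and Rps6ka6 drop out of the test when genes with a mean log2 value below the median are left out.

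The genes most like Prkd1 and Rps6ka6 over the 6 arrays were sought among the 9392 other genes whose brighter group lay above the median of all genes, by the root mean square difference of log2 values centred on each gene's control mean. For Prkd1 they were S100a4, a calcium-binding protein gene (0.20), Tchh, the gene of the hair follicle protein trichohyalin (0.21), and Sigirr, an inhibitory receptor gene of the interleukin-1 family (0.29). S100a4 changed by -2.71 and Tchh by -2.73. For Rps6ka6, at its gene-level probe set, they were the immune receptor gene Cd300lb (0.13), the forkhead factor gene Foxd1 (0.18) and the water channel gene Aqp5 (0.20), which changed by -2.35, -2.01 and -2.31. Since the measure follows the change itself, it is a description of size and spread only.

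Genes beside Prkd1 and Rps6ka6 on their chromosomes changed by far less than these members. Of the 5 tested genes on each side of Prkd1 on chromosome 12, 0 of 10 passed by limma, with changes from -0.02 to 0.25, while 2 were higher and 0 lower at an unadjusted p under 0.05. Its nearest neighbours were 3110039M20Rik (0.08) and G2e3, a ubiquitin ligase gene (0.12). Around Rps6ka6 on the X chromosome, 1 of 10 passed and was lower, the nucleosome-binding protein gene Hmgn5, which read 1775 ± 36.8 in control and 1394 ± 35.7 in PIK3CA shRNA arrays (SD, n = 3 each). Its change was -0.34 (limma adjusted p = 0.0179), and it lost its call without any 1 of the 6 arrays (adjusted p from 0.0535 to 0.0729). The changes of the 10 lay between -0.35 and 0.26, and several of these genes were dim, such as Cylc1, a sperm head protein gene, at 5.97 in control and 9.17 in PIK3CA shRNA arrays.

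**Figure D3:**
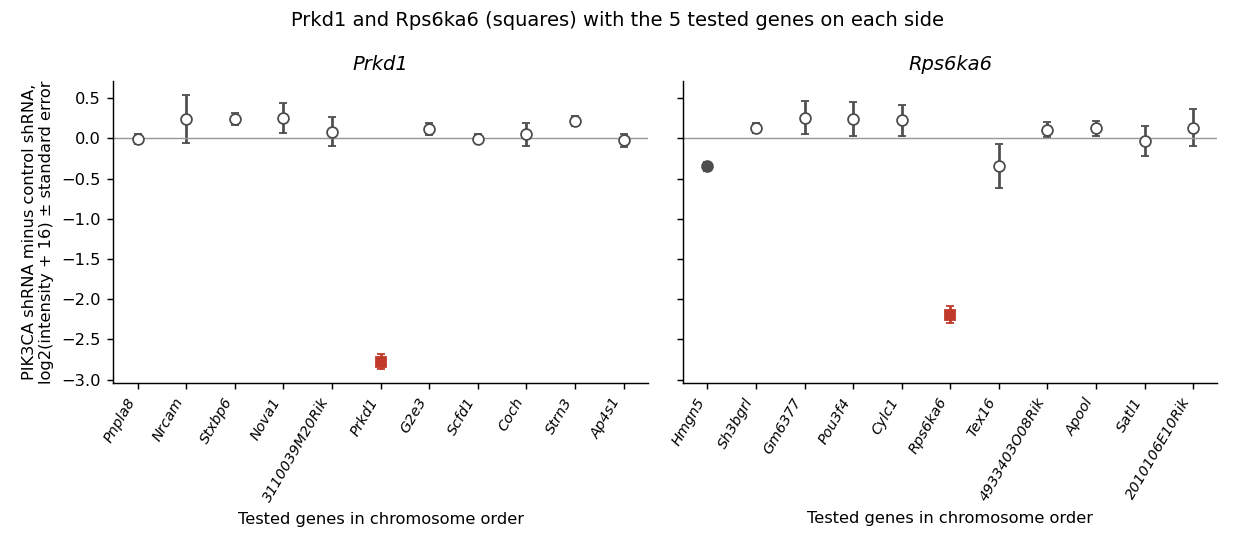
Change of Prkd1 and Rps6ka6 (squares) and of the 5 tested genes on each side in chromosome order, on the log2(intensity + 16) scale with standard errors (3 arrays per group). Filled circles passed adjusted p 0.05. The neighbours lie between -0.35 and 0.26, while Prkd1 is at -2.77 and Rps6ka6 at -2.19. Neighbours of Rps6ka6 with a control mean below the pseudocount of 16 could not show so large a fall on this scale.

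Upstream of the RSKs and MSKs, 1 of 12 measured genes of the ERK and p38 branches rose and 0 fell by limma. Among all genes 5.88% were higher and 5.62% lower. At an unadjusted p under 0.05, 2 of the 12 were higher and 1 lower. The riser was Mapk13, the gene of p38-delta, which read 12.6, 14.5 and 12.2 in control and 67.1, 76.3 and 82.8 in PIK3CA shRNA arrays. It was dim, with every control reading below the pseudocount. Its change was 1.65 ± 0.08 (standard error), with a limma adjusted p of 0.000531, and was 2.44 at a pseudocount of 1 and 0.85 at 64. The list's median change was 0.09, against -0.01 over all genes.

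Among substrates of RSK and MSK, 3 of 23 rose and 0 fell by limma (4 higher and 1 lower at an unadjusted p under 0.05), against 5.88% higher and 5.62% lower among all genes. The median change was 0.00. Cebpb, a leucine zipper transcription factor gene, read 2750, 2790 and 2700 in control and 3762, 3646 and 3793 in PIK3CA shRNA arrays and rose by 0.44 (limma adjusted p = 0.00835). Ets1, an ETS transcription factor gene, rose by 0.44 (adjusted p = 0.0136), and a second of its 4 probe sets also passed among probe sets. The immediate early gene Fos read 667, 646 and 695 against 817, 858 and 941 and rose by 0.37 (adjusted p = 0.0346). Fos lost its call without any 1 of the 6 arrays (adjusted p from 0.0625 to 0.110), and Ets1 without PIK3CA shRNA replicate 2 (0.0509) or 3 (0.0583).

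Of 13 relatives of RSK (other AGC kinases and kinases activated by MAPKs), 0 rose and 2 fell by limma. Among all genes 5.88% were higher and 5.62% lower. At an unadjusted p under 0.05, 1 relative was higher and 3 were lower, and the list's median change was -0.03. Sgk1, a kinase gene whose product is activated downstream of phosphoinositide 3-kinase, read 1250, 1244 and 1150 in control and 776, 774 and 756 in PIK3CA shRNA arrays. Its change was -0.65 ± 0.06 (standard error), with a limma adjusted p of 0.00365, and its groups did not overlap. Mapkapk5, a kinase gene of the p38 branch, was at -0.29 (adjusted p = 0.0493) and lost its call without any 1 of the 6 arrays (adjusted p from 0.0766 to 0.132).

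Around PKD, 2 of 19 genes that make or remove diacylglycerol rose and 2 fell, by limma (also 2 and 2 at an unadjusted p under 0.05), where 5.88% of all genes were higher and 5.62% lower. The list had a median change of -0.07. The phospholipase gene Plcg1 (0.43, limma adjusted p = 0.0323) and the diacylglycerol kinase gene Dgkz (0.41, adjusted p = 0.0146) rose. The phospholipase genes Plcb1 (-0.36, adjusted p = 0.0240) and Plcd4 (-0.92, adjusted p = 0.0418) fell. Plcd4 was dim, at 86.5, 77.1 and 84.1 in control and 52.9, 24.3 and 35.1 in PIK3CA shRNA arrays. In the limma fit over all probe sets, those standing for Plcd4 (adjusted p = 0.0654), Plcb1 (0.0548) and Plcg1 (0.0624) did not pass, while that of Dgkz did (0.0361). The other probe sets read 0.66 and -0.01 for Plcd4, 0.19 and 0.46 for Plcg1, and 0.15 for Dgkz. Those of Plcb1 lay between -0.26 and 0.14, and none of these others passed. Plcb1 lost its call without any 1 array (adjusted p from 0.0509 to 0.0823). Plcg1 kept its call only without control replicate 3 (0.0415), and reached 0.103 otherwise. Plcd4 kept its call only without PIK3CA shRNA replicate 1 (0.0230), and reached 0.124 otherwise. Dgkz lost it without control replicate 2 (0.0518) or PIK3CA shRNA replicate 2 (0.0535) or 3 (0.0620).

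Of 8 protein kinase C genes, 1 rose and 0 fell by limma, where 5.88% of all genes were higher and 5.62% lower. At an unadjusted p under 0.05, 1 was higher and 1 lower, and the list's median change was -0.02. Prkcd, which encodes a diacylglycerol-responsive isoform that can activate PKD, read 1067, 1038 and 1046 in control and 1407, 1444 and 1458 in PIK3CA shRNA arrays. The groups were far apart relative to their spread, and Prkcd rose by 0.45 ± 0.05 (standard error), with a limma adjusted p of 0.00773. Of 29 measured substrates and partners of PKD, such as the class IIa histone deacetylases and the Golgi lipid kinase Pi4kb, 0 passed by limma. Among all genes 11.5% passed. At an unadjusted p under 0.05, 2 of the 29 were higher and 3 lower. Changes of the 29 lay between -0.39 and 0.45, with a median of 0.02. The lowest was Pik3r1, a regulatory subunit gene of phosphoinositide 3-kinase, which missed the threshold very narrowly (limma adjusted p = 0.05001).

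**Figure D4:**
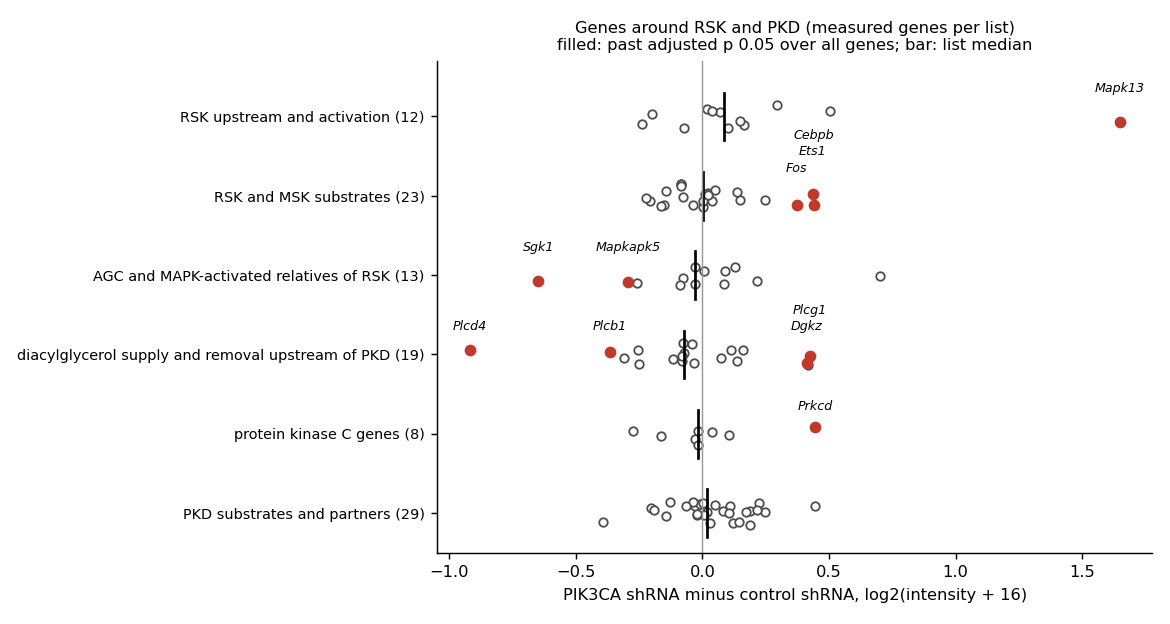
Change of each measured gene in 6 lists around RSK and PKD, given as log2(intensity + 16) in PIK3CA shRNA minus control arrays, 1 point per gene with the number of measured genes in brackets. Filled points passed adjusted p 0.05 over all genes and are named, from Plcd4 at -0.92 to Mapk13 at 1.65; bars are list medians, which lie between -0.07 and 0.09.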

How the data were processed

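Total RNA of 6 samples was labelled with biotin and hybridised to Affymetrix mouse arrays, 1 per sample, per the labels' protocols. The authors' deposited values are linear intensities per probe set (45101 per array, 64 of them Affymetrix controls, which were left out). Each array has a minimum of 0.0359 and a maximum of 17918.5, with nearly equal quartiles, as after a normalization between arrays. The labels name no method. On each array 15.0% of values lay below 16.

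Intensities were scaled to a common median over non-control probe sets and taken to log2(intensity + 16). Probe sets with 1 symbol in the platform annotation (34945; 932 had several, 9160 none listed) were named, and 34741 matched RefSeq GRCm38.p6 by gene identifier. A gene was represented by its probe set of highest mean log2 value. Groups (3 control shRNA, 3 PIK3CA shRNA) were compared by limma (version 3.58.1, R 4.3.3), two-sided, with Benjamini-Hochberg adjustment over all genes or all probe sets and a threshold of 0.05. The gene-level limma fit, but not the other steps, was tested on simulated data. Figures used matplotlib 3.10.9 in Python 3.11.15.

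The members and lists were chosen with earlier results of these data known. Named by rule were all members, Pik3ca, called neighbours and up to 4 called genes per list by adjusted p. The 3 genes nearest to Prkd1 and to Rps6ka6 were also named by rule. Cylc1, 3110039M20Rik, G2e3 and Pik3r1 were chosen after their values were seen, and cell type markers are named as what was checked. Alternatives covered a replicate block, scaling, a filter, the choice of probe set, the variance model, array weights, the pseudocount, the threshold and each array left out. The number of arrays limits the precision.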

Additional observations from a re-analysis of the deposited data

How the results depend on the processing

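As genes, Prkd1 and Rps6ka6 stayed lower and Rps6ka5 higher, past the threshold, under every alternative in which they could be tested. Since the set was picked for the falls of Prkd1 and Rps6ka6 on these arrays, this is a description only. With dim genes left out only 3 members were tested and 1 was past the threshold, since Prkd1 and Rps6ka6 were not tested there. The size of the falls moved with the pseudocount, to -3.15 for Prkd1 and -2.51 for Rps6ka6 at 1 and to -2.07 and -1.60 at 64. With the mean of probe sets they were -2.45 and -3.25, and with the most variable probe set per gene (largest interquartile range) Rps6ka6 was at -4.31. The 2093 genes past the threshold became 3192 with an intensity trend and robust prior and 636 at adjusted p 0.01, and the 2225 probe sets became 4672, 593 and, at a pseudocount of 64, 3631. With dim genes left out 1467 genes were higher and 1557 lower, against 1070 and 1023. Leaving out 1 array gave 945 to 1138 genes and 731 to 1015 probe sets. Plcd4 turned to 0.66 with that most variable probe set and did not pass there.

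The replicate numbers did not pair the samples: deviations of same-numbered arrays correlated at 0.06, -0.01 and -0.02, and 2 of 6 arrays correlated best with their own number. With the replicate block 413 genes and 185 probe sets were past the threshold, the 3 called members kept their calls as genes, 3 rather than 5 member probe sets passed (the Rps6ka5 probe set and the dimmer Prkd1 probe set in control did not), and of the 11 named list genes Mapk13 and Sgk1 did. The mean of probe sets ended the calls of Mapkapk5, Plcb1, Plcg1, Plcd4 and Dgkz, and the most variable probe set those of Fos, Mapkapk5, Plcb1, Plcg1 and Plcd4. Mapkapk5 also lost its call with quantile normalization, no scaling, array weights and a pseudocount of 1, and Plcd4 with a pseudocount of 1. No detection calls were used here, so signal over background was not judged.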
